A study of Mus musculus with 14 samples.

Results

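Transcripts of the 14-3-3 genes in mouse brain were followed through 29 probe sets on an expression array, and no protein was measured. All probe sets annotated to Ywhaz, Ywhab, Ywhae, Ywhag, Ywhah, Ywhaq or Sfn were taken, 29 of 22626, and each was kept apart. Ywhaz and Ywhaq have 7 probe sets each, Ywhab 6, Ywhae 4, Ywhag 3, and Ywhah and Sfn 1 each. The genes were chosen by a rule that used measured values of these arrays: Ywhaz lies on chromosome 15 and 1 of its 7 probe sets was lower in PatDp7 than in MatDp7. The difference between the duplications is therefore given for these genes as a description without a test.

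RNA was hybridised to 14 arrays, Affymetrix GeneChip 430A, whose MAS5 signal intensity is a linear brightness with no unit. All mice were heterozygous for the translocation T9H, which joins chromosomes 7 and 15, so no group is a normal control. In MatDp7 mice the proximal Chr 7 segment was duplicated from the mother and the proximal Chr 15 segment from the father, and in PatDp7 mice it was the other way round. Neonatal cortex, neonatal cerebellum and brain at 15.5 dpc (days post coitum) have 2 arrays for each duplication, and brain at 13.5 dpc has 1 for each. The labels call the replicates biological but name neither animals nor pools, so a p-value here measures only the spread between these samples. They also give no breakpoint, so whether Ywhaz lies inside the duplicated part of chromosome 15 is not settled here. Labelled tissues carried their markers: Mef2c and Neurod6 of cortical neurons differed by 3.23 and 2.61 (log2) in favour of cortex (limma adjusted p = 0.000435 and 0.00369), and 5 of 8 tested cerebellar and hindbrain markers were higher in cerebellum, where 0.221% of all tested probe sets were called higher in cortex and 0.147% in cerebellum.

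14-3-3 proteins are small acidic dimers, abundant in brain, that bind serine or threonine residues once a kinase has phosphorylated them. Binding holds a client protein in one shape, hides a signal within it or keeps it in the cytoplasm, and a phosphatase that removes the phosphate ends it. The Ywha gene names refer to activation of tyrosine and tryptophan hydroxylase, the enzymes that start catecholamine and serotonin synthesis. Ywhaz, Ywhab, Ywhae, Ywhag, Ywhah and Ywhaq encode the zeta, beta, epsilon, gamma, eta and theta proteins. Sfn encodes the sigma protein, stratifin, which is typical of stratified epithelium such as epidermis and is induced by p53.

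The 28 probe sets of the 6 Ywha genes all passed the filter on low values. The Sfn probe set did not and was tested only in a fit of all 22626. The filter used the mean, so a probe set could still be dim on single arrays. On the 15.5 dpc replicate 2 arrays of MatDp7 and PatDp7, Ywhaz 1436981_a_at lay below the median intensity of the array (212.6 and 230.9). Levels of different probe sets cannot be set against each other, because each has its own probes. Probe sets ending in _x_at or _s_at may also bind related sequences, and the Ywha genes are close relatives of each other. Among the 7 Ywhaz probe sets the correlation of log2 values over the 14 arrays ran from -0.732 to 0.96 with a median of 0.147. For Ywhab the range was -0.339 to 0.978 (median 0.774), for Ywhaq -0.445 to 0.907 (median 0.57) and for Ywhae 0.33 to 0.857 (median 0.652). The 3 Ywhag probe sets followed each other most closely, at 0.809 to 0.831. These correlations share the arrays and their scaling and are a description.

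**Figure D1:**
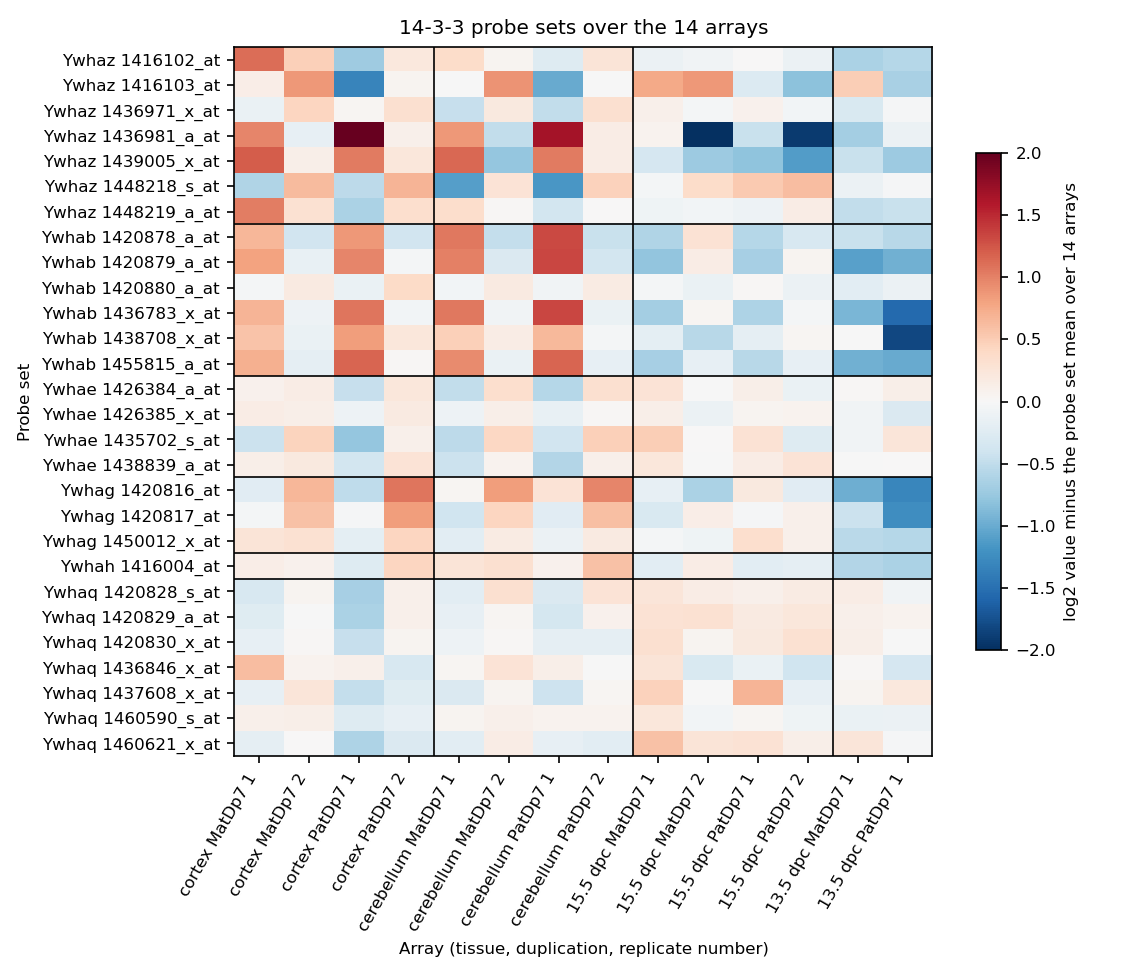
Each row is 1 of the 28 tested probe sets and each column 1 array; colour is the log2 value minus the mean of that probe set over the 14 arrays, red above and blue below. Ywhab probe sets are red on the neonatal replicate 1 arrays, Ywhag is blue on the 13.5 dpc arrays, and the widest colour range is in Ywhaz 1436981_a_at.

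The 4 neonatal replicate 1 arrays stood apart from the other 10, with a highest intensity of 43127 to 61172 against 17662 to 25858. Where a tissue had replicates, Xist was low and Uty measurable on replicate 1 and Xist was high on replicate 2, so replicate number and the level of these sex-linked transcripts go together. Both 13.5 dpc arrays had high Xist (5760 and 4370) and low Uty (34.9 and 23.5). The comparison of the embryonic ages is therefore not balanced for these transcripts. Within the 4 neonatal groups 7 of the 28 family probe sets were higher in replicate 1 in 4 of 4 groups, against 25.2% of all 13576 tested, and 13 were lower in 4 of 4, against 29.6%. Ywhab held 5 of the 7, with mean log2 differences of 0.58 to 1.40, and its sixth, 1420880_a_at, was lower by a mean of -0.30. Ywhaz 1436981_a_at and 1439005_x_at were higher by 1.49 and 1.18, and Ywhaz 1448218_s_at, 1416103_at and 1436971_x_at were lower (-1.36, -1.0 and -0.58). All 3 Ywhag probe sets were lower (-0.99, -0.79 and -0.33), as were 3 of 4 for Ywhae and 3 of 7 for Ywhaq. At 15.5 dpc the Ywhab probe sets 1420878_a_at, 1420879_a_at, 1436783_x_at and 1455815_a_at went the other way, lower in replicate 1 in both duplications. Differences between neonatal and 15.5 dpc tissue are therefore also given with either neonatal replicate left out. Each neonatal group then has 1 array. The spread comes only from the 15.5 dpc pairs, so no calls are given for those fits.

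Ywhaz, the zeta protein, is the family member on chromosome 15; the others lie on chromosome 2 (Ywhab), 4 (Sfn), 5 (Ywhag and Ywhah), 11 (Ywhae) and 12 (Ywhaq). Its probe set 1416103_at was lower in PatDp7 than in MatDp7 in every tissue. In cortex the intensity was 901 and 1535 in MatDp7 and 296 and 849 in PatDp7, replicate 1 first. In cerebellum it was 813 and 1567 against 381 and 807, and at 15.5 dpc 1408 and 1522 against 667 and 437. The 13.5 dpc arrays read 1164 and 499. Within each tissue the duplications did not overlap, though in cerebellum the gap between 807 and 813 was small, and neonatal replicate 1 lay below replicate 2 in both duplications.

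The log2 difference of that probe set was -1.15 ± 0.30 (SE from limma), the mean of 6 same-numbered pairs that read -1.45 and -0.82 in cortex, -1.0 and -0.91 in cerebellum and -1.02 and -1.69 at 15.5 dpc. The 13.5 dpc pair read -1.14. It was lower in 6 of 6 pairs, which 2.88% of all tested probe sets also were, and 1.41% were lower in the 6 pairs and at 13.5 dpc. By the adjusted p over all tested probe sets, 0.133% were called for parental origin and 0.0368% were called lower in PatDp7; since this contrast chose the gene, nothing is read from these shares. Leaving out 1 array at a time gave -0.92 to -1.38.

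The other 6 Ywhaz probe sets did not follow it. Probe set 1448219_a_at, the brightest of the gene, read 14338 and 8704 in MatDp7 cortex and 4495 and 8819 in PatDp7 cortex. In cerebellum it read 8910 and 7091 against 5421 and 7020, and at 15.5 dpc 6572 and 6758 against 6513 and 7775. Its mean log2 difference of -0.36 came from the neonatal replicate 1 arrays, where the mean of the cortex and cerebellum pairs was -1.19, while the replicate 2 mean was 0.00 and both 15.5 dpc pairs lay between -0.01 and 0.20. Probe set 1416102_at did the same, with -1.23 in neonatal replicate 1, -0.03 in replicate 2 and -0.41 over all pairs, and it correlated with 1448219_a_at at 0.96 over the 14 arrays. The remaining Ywhaz probe sets gave 0.41 (1436981_a_at), 0.18 (1448218_s_at), 0.02 (1436971_x_at) and -0.02 (1439005_x_at). Of these 7, the probe sets 1416102_at, 1416103_at, 1448218_s_at and 1448219_a_at are annotated to the same transcript record, so a low and a level reading were obtained for 1 annotated transcript. Which part of the transcript each probe set reads was not analysed here.

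**Figure D2:**
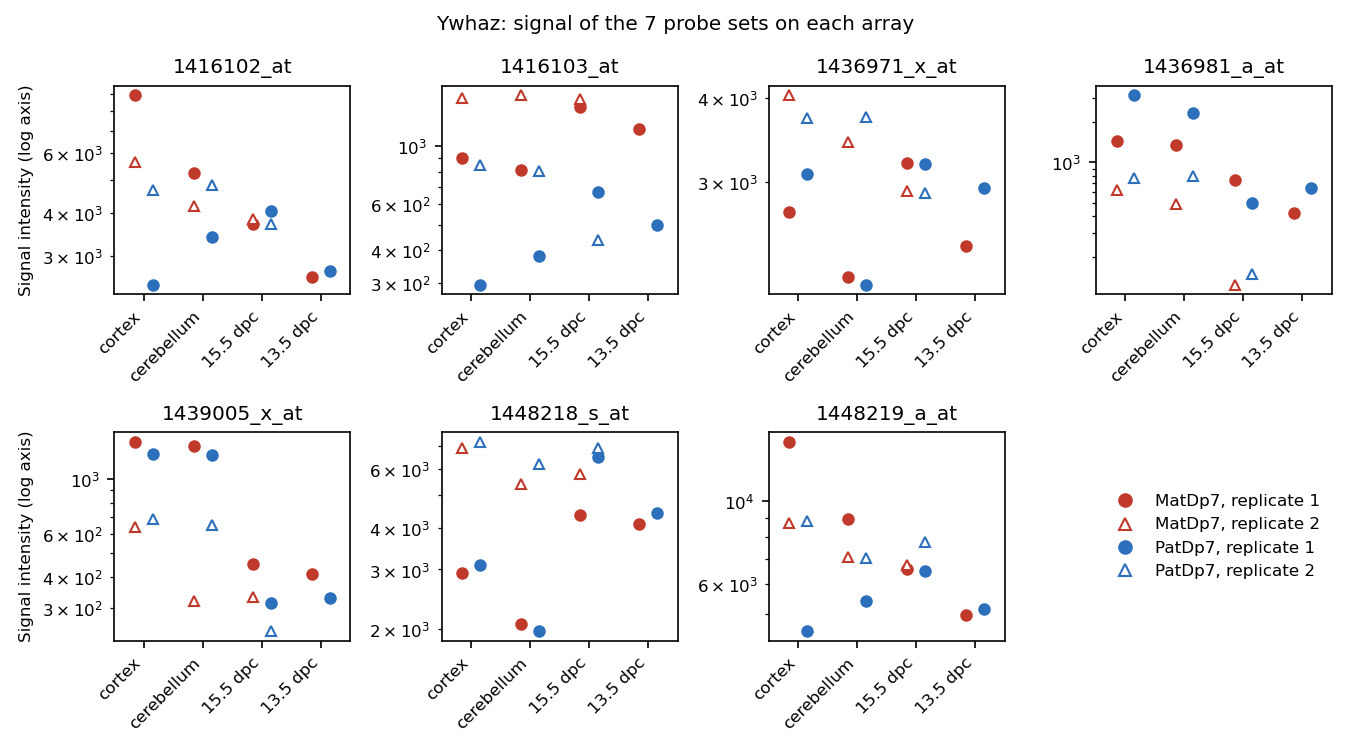
Signal intensity (log axis) of the 7 Ywhaz probe sets by tissue, each point 1 array, red for MatDp7 and blue for PatDp7, filled circles for replicate 1 and open triangles for replicate 2. Blue lies below red in every tissue for 1416103_at; for 1416102_at and 1448219_a_at this holds for the neonatal replicate 1 circles and not for the 15.5 dpc arrays.

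Over the 28 tested probe sets, 11 had a positive and 17 a negative parental difference, with a median of -0.04 against 0.00 over all tested probe sets and a range of -1.15 to 0.41. No probe set other than 1416103_at had the same sign in 6 of 6 pairs, where 2.61% of all were higher in PatDp7 in every pair. The next lowest were Ywhaz 1416102_at and 1448219_a_at, described above, and after them Ywhaq 1436846_x_at at -0.27, which was positive in the cerebellum replicate 1 pair (0.07). Ywhab 1438708_x_at was 0.21 over the replicated pairs and -1.81 at 13.5 dpc, where MatDp7 read 1546 and PatDp7 403. Of the 10 genes on each side of Ywhaz in the gene table, 2 of 20 were tested: Ankrd46 differed by -0.15 ± 0.22 and Pabpc1, the cytoplasmic poly(A)-binding protein, by 0.12 ± 0.28.

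**Figure D3:**
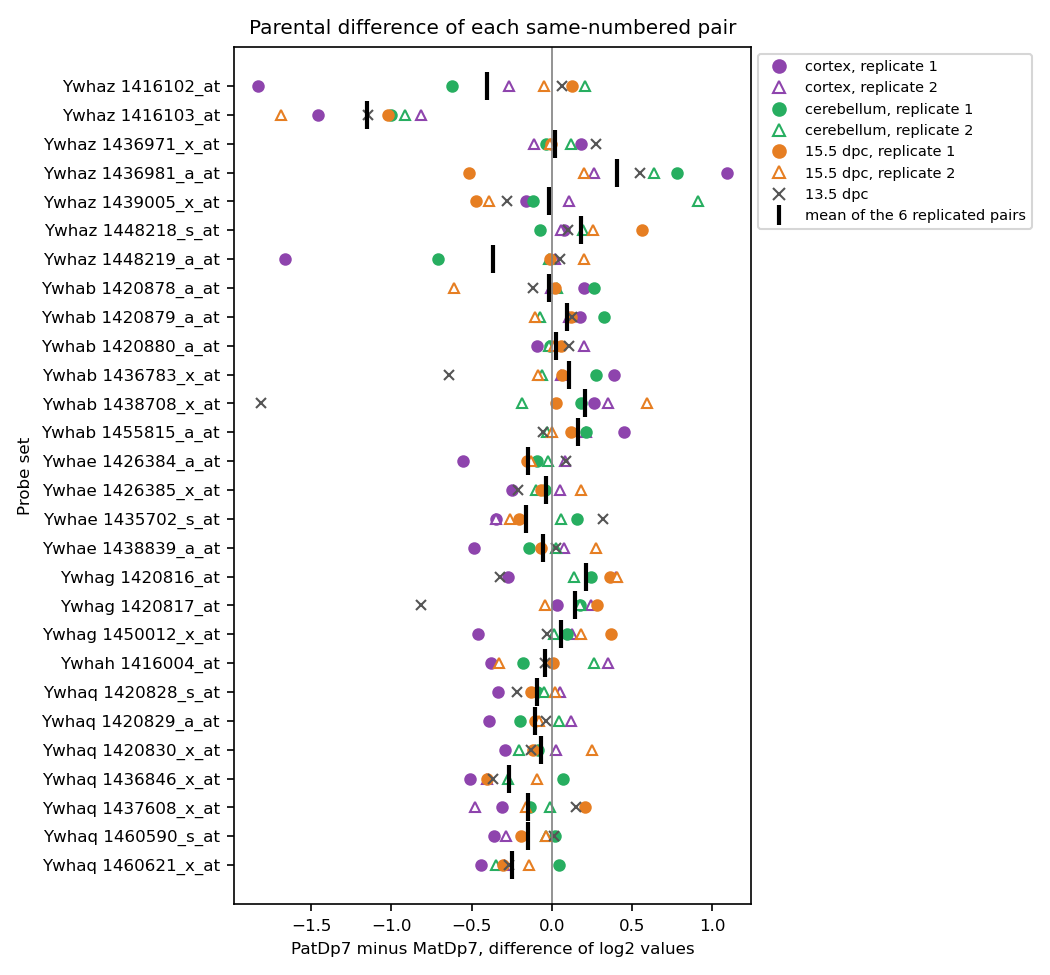
PatDp7 minus MatDp7 log2 difference of each same-numbered pair for the 28 tested probe sets, coloured by tissue, with a cross for 13.5 dpc and a black bar for the mean of the 6 replicated pairs. All 7 marks of Ywhaz 1416103_at lie below 0, between -0.82 and -1.69; the marks of the other probe sets fall on both sides.

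Neonatal cortex and cerebellum were compared to ask whether the brain regions differ in family transcripts. None of the 28 probe sets differed by the limma test at an adjusted p under 0.05, where 50 of all 13576 did (0.368%). None passed at an unadjusted p under 0.05 either, as 7.4% of all did, and the lowest adjusted p in the family was 0.857. With the neonatal replicate number as a block the family count stayed at 0, where 3.43% of all passed. Log2 differences ran from -0.28 (Ywhag 1420816_at) to 0.43 (Ywhaz 1448218_s_at), with a median of 0.00 against 0.02 over all. Standard errors reached 0.68, for Ywhaz 1436981_a_at, so a difference of that size in it was not detectable. For Ywhaz 1448219_a_at the mean intensity was 9089 ± 4037 (SD, n = 4) in cortex and 7111 ± 1426 (n = 4) in cerebellum, a log2 difference of 0.26 ± 0.25. Ywhah, the eta protein, read 4942, 4799, 3782 and 6124 in cortex and 5408, 5671, 4777 and 6819 in cerebellum, and the ranges overlapped (-0.21 ± 0.19). The sign of the difference was opposite in replicate 1 and replicate 2 for 10 of the 28, and the share over all probe sets was not counted.

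Neonatal tissue was set against 15.5 dpc brain to ask what changes late in gestation; age and brain part differ together in this comparison. In bulk tissue, fewer cells of a type and less RNA per cell cannot be told apart. Of the 28, 1 passed the limma test (lower in neonatal tissue), where 11.3% of all did in either direction, 4.09% higher and 7.18% lower. It was Ywhaq 1460621_x_at, a probe set of the gene for the theta protein, at -0.50 ± 0.14 (limma adjusted p = 0.0487). Intensity was 3768, 4313, 2764 and 3503 in cortex, 3695, 4731, 3808 and 3701 in cerebellum, and 6462, 5127, 5225 and 4636 at 15.5 dpc. Only the cerebellum MatDp7 replicate 2 array, at 4731, reached into the 15.5 dpc range. Without neonatal replicate 1 the difference was -0.40, and without neonatal replicate 2 it was -0.61. With each of the 12 replicated arrays left out in turn the difference stayed between -0.58 and -0.42, while the call ended for 10 of the 12, with adjusted p up to 0.188. The call was kept without cortex PatDp7 replicate 2 (0.0364) and without cerebellum MatDp7 replicate 2 (0.0488).

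Other Ywhaq probe sets gave -0.40 (1437608_x_at), -0.39 (1420829_a_at), -0.34 (1420830_x_at), -0.26 (1420828_s_at), -0.02 (1460590_s_at) and 0.25 (1436846_x_at), none past the threshold. The largest differences in the family were in Ywhaz 1436981_a_at, 1.75 ± 0.58 (limma adjusted p = 0.0836), and Ywhaz 1439005_x_at, 1.26 ± 0.38 (adjusted p = 0.063). Probe set 1436981_a_at read 629 to 3145 in cortex, 490 to 2342 in cerebellum and 744, 124, 504 and 150 at 15.5 dpc. Probe set 1439005_x_at read 638 to 1411 in cortex, 320 to 1355 in cerebellum and 242 to 454 at 15.5 dpc. The ranges of 1436981_a_at overlapped: its 15.5 dpc replicate 1 arrays, at 744 and 504, lay within the neonatal range and its replicate 2 arrays below it, a mean log2 gap of 1.82 between the 15.5 dpc replicates. For 1439005_x_at the neonatal cerebellum MatDp7 replicate 2 array, at 320, was the only neonatal one to reach into the 15.5 dpc range. The brighter Ywhaz probe sets 1448219_a_at (0.15 ± 0.21) and 1448218_s_at (-0.54 ± 0.41) gave no matching difference.

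Ywhab, the beta protein, shows how far the replicates disagree. Its brightest probe set, 1455815_a_at, read 16101, 8659, 22056 and 10041 in cortex and 18932, 8928, 21989 and 8753 in cerebellum, against 6162, 8748, 6711 and 8767 at 15.5 dpc. Neonatal replicate 1 arrays lay above all 15.5 dpc arrays and replicate 2 arrays beside them. The log2 difference over all arrays was 0.83 ± 0.35 (limma adjusted p = 0.142), from 1.60 between the replicate 1 arrays and 0.05 between the replicate 2 arrays. For Ywhag 1420816_at, the gamma protein whose mutations cause a childhood epilepsy, the same contrast gave -0.13 in replicate 1 and 1.32 in replicate 2. The sign was opposite in the replicates for 17 of the 28 probe sets. The share of all tested probe sets with opposite signs was not counted. Of all tested, 25.2% were higher and 29.6% lower in replicate 1 in 4 of 4 neonatal groups, so the shift is not particular to the family.

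The count therefore moved with the arrays used. Without neonatal replicate 1, 3 of 28 passed, all higher in neonatal tissue: Ywhag 1420816_at by 1.09 (limma adjusted p = 0.0107), Ywhag 1420817_at by 0.64 (adjusted p = 0.0294) and Ywhaz 1439005_x_at by 0.67 (adjusted p = 0.0295), where 16.3% of all passed and 7.77% were higher. Without neonatal replicate 2, 16 of 28 passed, 7 higher and 9 lower, where 48.6% of all passed, 22.1% higher and 26.5% lower. Ywhaz 1439005_x_at was higher in both. With the neonatal replicate number as a block, which takes the shift between replicates out of the spread, 13 of 28 passed, where 43% of all did (19.8% higher, 23.2% lower). The 8 higher in neonatal tissue were 5 Ywhab probe sets, Ywhaz 1436981_a_at and 1439005_x_at and Ywhag 1420816_at, and the 5 lower were 4 Ywhaq probe sets and Ywhaz 1448218_s_at. The block leaves the differences as given above and changes only their error: for Ywhaz 1439005_x_at the limma adjusted p became 0.000114 and for Ywhaq 1460621_x_at 0.00291. In this comparison the shift between neonatal replicates is itself part of the error of the neonatal mean. The p-values with the block leave it out and so understate the uncertainty. For Ywhaz 1439005_x_at the replicate shift was 1.18, close in size to the difference of 1.26. All the Ywhae probe sets lay between -0.24 and 0.00 over all arrays; the epsilon protein binds Ndel1 and is needed for neuronal migration. Counts were 16 positive and 12 negative, with a median of 0.08 against -0.02 over all.

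Markers of several cell types moved between the same groups. The summed intensity of 5 blood markers was 344.8 to 1235 in neonatal tissue and 2444 to 7787 at 15.5 dpc, and 3 of 3 tested were lower in neonatal tissue. That of 5 markers of meninges and mesenchyme was 2970 to 9504 against 8889 to 11250, with 3 of 5 lower, and that of 7 markers of neural progenitors 5683 to 9921 against 10620 to 15620, with 3 of 7 lower. Higher in neonatal tissue were 2 of 4 tested astrocyte markers (sum of 6, 4804 to 9911 against 2922 to 4085) and 2 of 8 neuron markers (29590 to 40620 against 26200 to 30960). Of all tested probe sets, 7.18% were lower and 4.09% higher. With the block these marker counts were 3 of 3, 3 of 5 and 5 of 7 lower, and 4 of 4 and 5 of 8 higher. The shares of all were then 23.2% lower and 19.8% higher. The part of these cells in the family values was not tested.

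**Figure D4:**
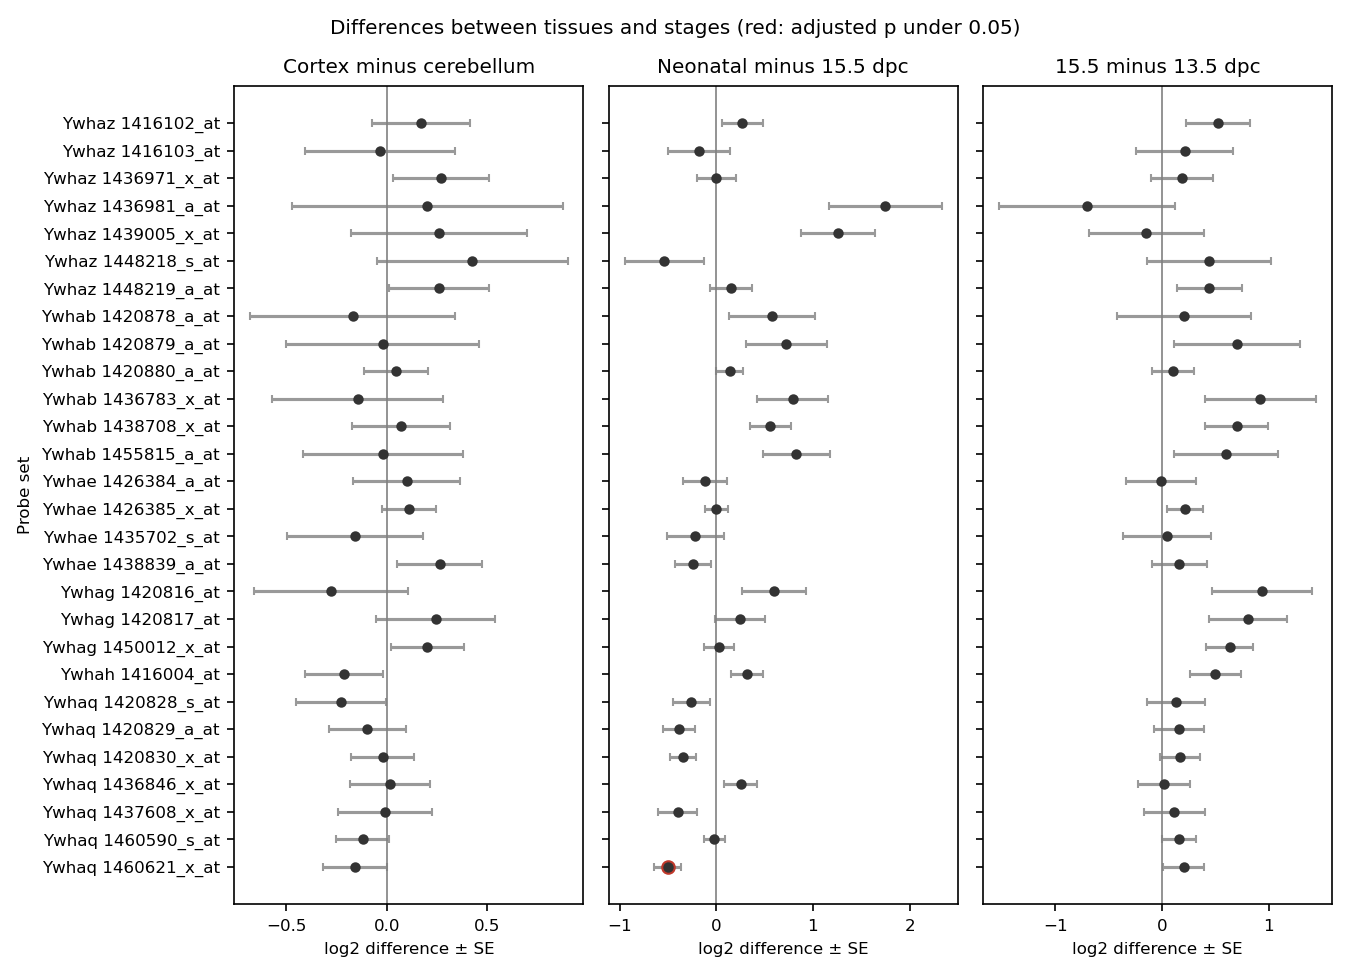
Log2 difference ± SE from limma of the 28 tested probe sets, for cortex minus cerebellum, neonatal minus 15.5 dpc and 15.5 minus 13.5 dpc; red marks an adjusted p under 0.05. The 1 red point is Ywhaq 1460621_x_at at -0.50 in the middle panel, and in the right panel 25 of 28 points lie above 0.

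Brain at 15.5 dpc was set against 13.5 dpc to ask what changes earlier. At 13.5 dpc there are 2 arrays, 1 per duplication, assumed to vary like the others. Both had high Xist, which at 15.5 dpc only the replicate 2 arrays had. The part of this imbalance in the differences was not tested. None of the 28 probe sets passed the limma test, where 5.04% of all did (2.28% higher, 2.75% lower), and 2 passed at an unadjusted p under 0.05, where 18.9% of all did. Of the 28, 25 were higher and 3 lower at 15.5 dpc, with a median of 0.20 against -0.01 over all. Of the 6 largest values 3 were of Ywhag and 3 of Ywhab. Probe set 1450012_x_at read 3723, 3607, 4833 and 4108 at 15.5 dpc against 2615 and 2555 at 13.5 dpc, and every 15.5 dpc array was higher (0.63 ± 0.22, adjusted p = 0.15). Probe set 1420816_at read 1073, 757, 1394 and 1023 against 584 and 457 (0.94 ± 0.47, adjusted p = 0.328). Probe set 1420817_at read 2714, 3704, 3307 and 3602 against 2495 and 1395 (0.81 ± 0.36, adjusted p = 0.275). The share of all probe sets whose ranges at the embryonic ages do not overlap was not counted, so nothing is read from the separate ranges of these 3.

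Ywhah, which has 1 probe set, read 3888, 5005, 3911 and 3981 at 15.5 dpc against 2981 and 2898 (0.50 ± 0.24, limma adjusted p = 0.304). Ywhab 1436783_x_at gave 0.92 ± 0.52 and Ywhab 1438708_x_at 0.70 ± 0.30, the latter from 1047 to 1609 at 15.5 dpc against 1546 and 403, which overlapped. The Ywhae values ran from -0.01 to 0.21 and the Ywhaq values from 0.01 to 0.20. Ywhaz 1436981_a_at was lower at 15.5 dpc (-0.70 ± 0.83) and Ywhaz 1416102_at higher (0.53 ± 0.30).

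The difference between the embryonic ages does not use the neonatal arrays, which enter only the estimate of the spread. With neonatal replicate 1 left out, the differences stayed as they were and 5 of 28 passed, all higher at 15.5 dpc, where 15.9% of all passed and 8.75% were higher. These were Ywhag 1420817_at, 1420816_at and 1450012_x_at (limma adjusted p = 0.0244, 0.0252 and 0.0342) and Ywhab 1438708_x_at and 1436783_x_at (adjusted p = 0.0404 and 0.0497). Without neonatal replicate 2, 5 also passed, all higher, where 16% of all passed and 8.76% were higher. With the neonatal replicate number as a block 6 passed, all higher, where 20.8% of all passed and 11.8% were higher: the 3 Ywhag probe sets (lowest limma adjusted p = 0.00287) and Ywhab 1438708_x_at, 1436783_x_at and 1455815_a_at. Each 13.5 dpc group has 1 array, so the gap between these arrays does not enter the p-values. That gap (PatDp7 minus MatDp7, log2) was -1.81, -0.64 and -0.06 for these Ywhab probe sets. For Ywhag 1420816_at, 1420817_at and 1450012_x_at it was -0.32, -0.82 and -0.03. The summed intensity of 8 neuron markers was 13540 and 11250 at 13.5 dpc against 26200 to 30960 at 15.5 dpc, and 6 of the 8 rose by the test, where 2.28% of all did. That of 5 markers of meninges and mesenchyme was 35080 and 34600 against 8889 to 11250, with 3 of 5 lower, and that of 5 blood markers 34150 and 28390 against 2444 to 7787, with 2 of 3 tested lower. Of all tested probe sets, 2.75% were lower. With the block 7 of 8 neuron markers were higher and all 5 of mesenchyme and 3 of blood were lower. The shares of all were then 11.8% higher and 9.05% lower. The part of these cells in the Ywhag and Ywhah values was not tested.

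Sfn was at the bottom of the range on 12 arrays and measurable at 13.5 dpc. It read 13, 4, 5 and 7 in cortex, 8, 3, 10 and 3 in cerebellum and 6, 5, 4 and 15 at 15.5 dpc, but 199.8 in MatDp7 and 350.3 in PatDp7 brain at 13.5 dpc. In the limma fit of all 22626 probe sets the log2 difference between 15.5 and 13.5 dpc was -2.42 ± 0.12 (adjusted p = 7.31e-06), where 4.8% of all passed and 3.39% were lower. Its size is set largely by the constant of 52.0273 added before the log, since the other 12 arrays lie under it, so it is no fold. With each 15.5 dpc array left out in turn, the difference stayed between -2.49 and -2.36, and without neonatal replicate 1 it was -2.42.

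Markers of stratified epithelium moved with Sfn. Krt5, the basal keratin, read 2640 and 3220 at 13.5 dpc and 19.4 to 96.8 on the other 12 arrays (limma adjusted p = 6.66e-05, all probe sets). Krt15 read 1650 and 2040 against 10.6 to 20.8 (adjusted p = 2.29e-07), and Trp63, the transcription factor of basal epithelium, 398 and 427 against 20.3 to 102 (adjusted p = 0.000251). Krt10 and Perp were also higher at 13.5 dpc (adjusted p = 0.0486 and 0.00873). Cdh1 (302 and 351 against 19.4 to 170, adjusted p = 0.158) and Krt14 (144 and 104 against 70.1 to 235, adjusted p = 0.848) did not pass. In all 5 of 7 markers were higher, none of the 7 was at 0, and the list summed to 6659 and 8656 against 510 to 937.8 elsewhere. The part of such cells in the Sfn value was not tested.

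**Figure D5:**
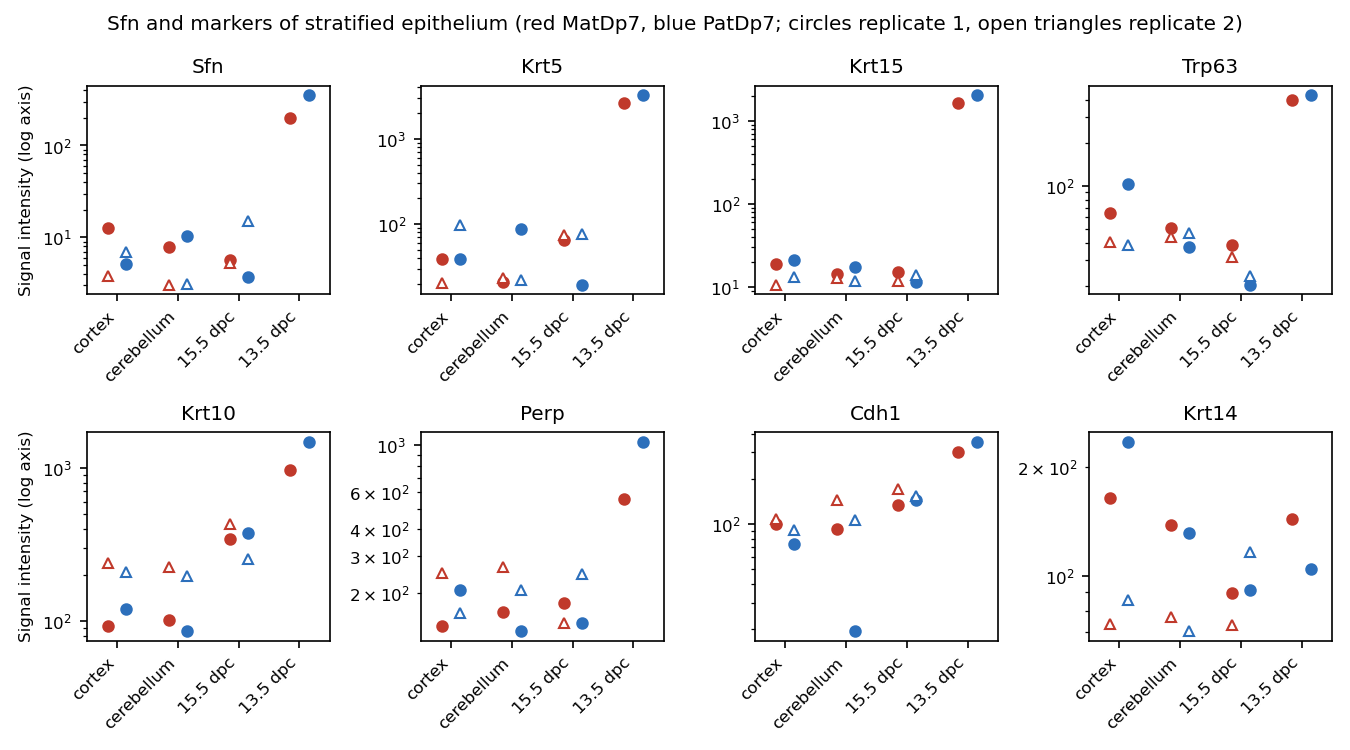
Signal intensity (log axis) of Sfn and 7 markers of stratified epithelium by tissue, each point 1 array, red for MatDp7 and blue for PatDp7, circles for replicate 1 and open triangles for replicate 2. The 13.5 dpc points of Sfn, Krt5, Krt15, Trp63, Krt10, Perp and Cdh1 lie above all other arrays, while those of Krt14 lie among them.

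Promoter windows are shown for Sfn, which was lower at 15.5 than at 13.5 dpc, and for Ywhag. The means of its 3 probe sets were higher at 15.5 dpc, though none passed the test without the block. The windows come from RefSeq on GRCm38.p6, 250 bases before the gene start, read 5′ to 3′ on the gene's strand: chr4:133602169-133602418 (minus strand) for Sfn and chr5:135934642-135934891 (minus strand) for Ywhag. Capitals mark matches to the motifs searched on both strands, which were TATAAA (the TATA box), CCAAT, the GC box GGGCGG, the cAMP response element TGACGTCA and the E-box CACGTG.
Sfn: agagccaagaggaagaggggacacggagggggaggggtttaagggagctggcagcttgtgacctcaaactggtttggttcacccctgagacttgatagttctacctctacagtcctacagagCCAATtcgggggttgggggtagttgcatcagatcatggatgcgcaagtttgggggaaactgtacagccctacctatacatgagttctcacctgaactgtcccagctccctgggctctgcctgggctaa
Ywhag: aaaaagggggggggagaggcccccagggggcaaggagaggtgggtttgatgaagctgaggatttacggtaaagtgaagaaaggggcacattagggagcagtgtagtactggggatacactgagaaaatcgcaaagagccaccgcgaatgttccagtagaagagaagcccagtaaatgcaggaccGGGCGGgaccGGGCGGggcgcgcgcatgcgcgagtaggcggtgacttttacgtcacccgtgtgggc
The Sfn window held 1 CCAAT, which 33.8% of all 32851 windows held, and 3 CpG dinucleotides against a median of 6. The Ywhag window held 2 GC boxes, which 32.7% of all held, and 16 CpG. Windows were at hand for 5 of the 7 genes. Ywhae had 2 GC boxes and 29 CpG, Ywhaq 2 CCAAT and 24 CpG, and Ywhah 1 TATAAA, 2 GC boxes and 29 CpG. Ywhah also held 1 cAMP response element, found in 1.55% of all windows. A match is a description and not a shown binding site.

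Lists of genes that work with the family were counted in the same fits. Of 51 client proteins listed, 31 were tested. Between neonatal and 15.5 dpc tissue 2 were higher and 1 lower, where 4.09% and 7.18% of all were: Rgs7, a regulator of G protein signalling, by 0.80 (limma adjusted p = 0.00994), Sos1, which activates Ras, by 0.80 (adjusted p = 0.0281), and Cby1, which binds beta-catenin, by -0.75 (adjusted p = 0.0238). Between 15.5 and 13.5 dpc Rgs7 rose by 1.26 (limma adjusted p = 0.00837). Yap1, the growth regulator that 14-3-3 proteins hold in the cytoplasm, was lower (-1.22, limma adjusted p = 0.0155). Of all tested probe sets, 2.28% were higher and 2.75% lower between these ages. No client passed between cortex and cerebellum. With the neonatal replicate number as a block 7 clients were higher and 6 lower in neonatal tissue, where 19.8% and 23.2% of all were, 7 were higher and 5 lower at 15.5 than at 13.5 dpc, where 11.8% and 9.05% of all were, and 1 was higher in cortex. Without neonatal replicate 1 the neonatal counts were 3 higher and 4 lower, where 7.77% and 8.56% of all were, and without replicate 2 they were 7 and 5, where 22.1% and 26.5% were. The client medians were 0.18 for cortex minus cerebellum, 0.03 for neonatal minus 15.5 dpc and 0.04 for 15.5 minus 13.5 dpc. Over all tested probe sets they were 0.02, -0.02 and -0.01.

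Of 23 tested kinases that make 14-3-3 binding sites, 4 were higher in neonatal than 15.5 dpc tissue and none lower, where 4.09% of all were higher. They were Camk2d by 1.63 (limma adjusted p = 0.00618), Lats1 by 0.77 (adjusted p = 0.0188), Prkacb, a catalytic subunit of protein kinase A, by 0.70 (adjusted p = 0.0207) and Camk2g by 2.36 (adjusted p = 0.0368). No kinase passed in the other comparisons. The block gave 11 higher and 3 lower in neonatal tissue, where 19.8% and 23.2% of all were. It gave 4 higher and 1 lower at 15.5 than at 13.5 dpc, where 11.8% and 9.05% of all were. Between cortex and cerebellum it gave 1 in each direction, where 1.7% of all were higher and 1.72% lower. The same shares apply to the phosphatases and migration partners below. Among 10 phosphatase subunits Ppp3ca, the calcineurin catalytic subunit, was higher in neonatal tissue by 0.82 (adjusted p = 0.029), and none of the other 9 passed in any comparison without the block. With the block 2 were higher and 3 lower in neonatal tissue and 3 were higher at 15.5 than at 13.5 dpc. Among 9 tested neuronal migration partners of Ywhae, Ctnnd2, a catenin of neurons, rose by 1.36 from 13.5 to 15.5 dpc (adjusted p = 0.00672) and by 0.77 from 15.5 dpc to neonatal tissue (adjusted p = 0.011). With the block 3 of the 9 were higher in each of these comparisons and none lower.

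Genes most like the Ywhaz probe sets in pattern were ranked by Pearson correlation of log2 values over the 14 arrays, among 12499 probe sets of 1 gene outside the family. For 1448219_a_at they were Dcx at 0.86, the microtubule protein of migrating neurons, then Clk4 (0.812), Gpr27 (0.802), Rrp7a (0.792) and Irak1bp1 (0.787). For 1416103_at they were Ergic3 (0.915), Nudt19 (0.883), Lztr1 (0.871), Rasip1 (0.863) and Uri1 (0.852). Of these last 5, Nudt19, Rasip1 and Uri1 lie on chromosome 7 in the GRCm38.p6 table, as 6.5% of the probe sets compared do, and their parental differences were -0.66, -0.42 and -1.23. Ergic3 and Lztr1, on chromosomes 2 and 16, had -0.39 and -0.25. The arrays share scaling, the neonatal replicate 1 shift and the parental contrast that chose 1416103_at, so the ranks are a description.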

How the data were processed

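RNA of 14 samples in 8 groups was measured on GeneChip 430A arrays. Per the submitters' processing notes, the authors used MAS5, of unnamed version, to make the deposited intensity, a signal on a linear scale; other settings are not given in the sources used here. Of 22690 probe sets, 64 were controls and were left out. Intensities were used as deposited, after adding 52.0273 (the 20th percentile) and taking log2. The 13576 whose mean reached the 40th percentile entered limma 3.58.1 in R 4.3.3: a mean per group, an intensity trend, 6 residual and 3.15 prior degrees of freedom, and Benjamini-Hochberg adjustment over all of them, called under 0.05. Sfn and other dim genes were read from a fit of all 22626. The number of arrays limits the precision; detection calls were not used here. A gene of a list is represented by its probe set of highest mean. Up to 4 called genes per list and comparison with the smallest p are named, all family probe sets are accounted for, and the 5 genes most like each of 2 Ywhaz probe sets are given. Members and lists were chosen with earlier results of these data known. Labels do not say that replicate numbers pair the samples. Deviations of same-numbered samples correlated at 0.71 to 0.816 among the neonatal groups and at -0.0922 to 0.264 in pairs with a 15.5 dpc group. The neonatal numbers were therefore also fitted as a block, which for neonatal against 15.5 dpc leaves the replicate shift out of the error. An F-test of the parental difference between tissues was also run but is not read here, since that contrast chose the family. The constant, filter, scaling, trend, replicate block and arrays left out were varied. Gene names came from the platform annotation, chromosomes and promoters from RefSeq GRCm38.p6. The fit was tested on simulated data. Figures used Python 3.11.15 and matplotlib 3.10.9.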

Additional observations from a re-analysis of the deposited data

How the results depend on the processing

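Cortex against cerebellum stayed at 0 of 28 family probe sets under every alternative tried. The parental difference of Ywhaz 1416103_at stayed between -1.38 and -0.92. Between neonatal and 15.5 dpc tissue the 1 call became 0 with no filter (adjusted p = 0.0712) and with median centring (0.0669), and it ranged from 0 to 16 when a replicate or an array was left out. Between 15.5 and 13.5 dpc the count of 0 became 1 (Sfn) with no filter and 5 without neonatal replicate 1 or 2, and stayed 0 when a single array was left out. With the neonatal replicate number as a block, 13 of 28 passed between neonatal and 15.5 dpc tissue, where 43% of all did, and 6 between 15.5 and 13.5 dpc, where 20.8% did. With a block for the 15.5 dpc arrays too, the counts were 15 and 9, where 44.5% and 22.8% of all passed. Over all probe sets, cortex against cerebellum called 50, but 465 with the block and 601 with both blocks, and the count also moved when arrays were left out. Median centring moved the median of all probe sets between 15.5 and 13.5 dpc by 0.12, and neither scaling changed the sign of a family difference over 0.07 in size.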
